A study of Mus musculus with 8 samples.

Results

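The genes described here were those of the MHC class II pathway: Ciita, the invariant chain Cd74, the classical chains H2-Aa, H2-Ab1 and H2-Eb1, the peptide editors H2-DMa, H2-DMb1, H2-DMb2 and H2-Oa, and the protease Ctss. The 10 genes were taken by symbol from a fixed list, all 10 were present among the 20057 genes of the expression table, and the list was chosen by what the comparison of anti-CD40 with isotype had already shown in these libraries. Their differences between the groups are therefore given as a description, and no p-value is attached to any of the 10. The libraries were RNA-sequencing libraries of tumor endothelial cells, sorted as CD45-CD31+ live cells from subcutaneous B16-F10 melanoma in male C57BL/6 mice aged 8 weeks, with 1 tumor and 1 mouse per library. Of these, 4 mice (5N, 6L, 6R and 10N) had received the agonistic CD40 antibody FGK4.5 and 4 mice (5L, 7N, 8N and 9L) the rat IgG2a isotype antibody 2A3. Both antibodies were given beside the tumor as 2 injections of 30 µg, at day 13 and day 16 after implantation of 250000 melanoma cells. By the labels the mice were killed 1 day after the last injection, whereas the study's methods name more than one harvest day, and the day of each library is not known here. The labels name no transgene or deletion in these mice, and no untreated tumor was analysed here.

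MHC class II molecules are pairs of an alpha and a beta chain that present peptides from the endosome to CD4+ T cells. The pair is built in the endoplasmic reticulum around the invariant chain, which is then cut down by cathepsins until a short remnant is exchanged for peptide with the help of H2-DM, an exchange that H2-DO dampens. The genes share a promoter architecture of X and Y boxes bound by the RFX, CREB and NF-Y proteins, and they are switched on by the coactivator CIITA, which binds these proteins and not the DNA. Professional antigen-presenting cells make CIITA constantly, whereas endothelial cells make it when interferon gamma acts on them, in part through IRF1. Mice of the C57BL/6 strain lack a working H2-Ea gene and so carry the H2-Aa and H2-Ab1 pair alone at the cell surface.

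Windows of 5 promoters are shown, 4 because they hold the X-Y box pattern known from class II genes and that of H2-DMb2 because it departs from its neighbour H2-DMb1 within that pattern. RefSeq promoter sequences (build GRCm38.p6, from 250 bases before to 50 bases after the start of the gene) were at hand for 7 of the 10 members: H2-Aa, H2-Eb1, H2-DMa, H2-DMb1, H2-DMb2, H2-Oa and Ctss. A simple X-Y pattern was searched on both strands, namely GNAAC, the core of the X box, followed after 24 to 32 bases by ATTGG, the core of the Y box. The pattern was present in 1.54% of all 32851 promoters in the table (505 promoters), and it was found in H2-Aa, H2-Eb1, H2-DMb1 and H2-Oa. The Y core alone was present in 37.4% of all promoters. The windows below hold 64 bases each and run 5′ to 3′ on the strand of the gene, with the X core and the Y core in capitals.
H2-Aa: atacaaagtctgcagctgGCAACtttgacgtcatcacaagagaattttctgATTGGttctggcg
H2-Eb1: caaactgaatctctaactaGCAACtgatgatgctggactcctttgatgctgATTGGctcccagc
H2-DMb1: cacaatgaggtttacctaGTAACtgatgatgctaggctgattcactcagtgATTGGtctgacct
H2-DMb2: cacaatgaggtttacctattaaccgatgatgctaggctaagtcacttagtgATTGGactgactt
H2-Oa: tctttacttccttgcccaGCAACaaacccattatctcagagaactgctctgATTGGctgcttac

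The windows lay at chr17:34287859-34287922 on the minus strand for H2-Aa, and on the plus strand at chr17:34305757-34305820 for H2-Eb1, chr17:34153079-34153142 for H2-DMb1, chr17:34145108-34145171 for H2-DMb2 and chr17:34092285-34092348 for H2-Oa. In H2-Aa, H2-DMb1 and H2-Oa the cores were separated by 28 bases and in H2-Eb1 by 27 bases. The Y core began 48 bases before the start of H2-Aa, 59 before H2-Eb1, 61 before H2-DMb1, 90 before H2-DMb2 and 43 before H2-Oa, counted from the starts in the RefSeq table. GENCODE M21, from which the gene positions further on are taken, starts H2-DMb1, H2-DMb2 and H2-Oa further upstream, so that the windows of H2-DMb1 and H2-DMb2 lie inside the GENCODE genes and that of H2-Oa reaches into it. The H2-DMb1 and H2-DMb2 windows were identical at 57 of 64 bases (89.1%). Counted from 1 at the 5′ end of the window, one of the 7 differences, G19T with the H2-DMb1 base first, fell on the X core, so that the letters searched were absent from H2-DMb2. The RefSeq promoters of the class II genes H2-Ob and H2-Eb2, which were not members, also held the pattern. A match to these letters describes the sequence and does not show that a protein bound there, and letters that are not found say nothing of the factor.

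The number of reads behind each library differed widely, from 12512772 to 64938728 in the anti-CD40 libraries and from 2971689 to 35583141 in the isotype libraries, and mouse 5N was the deepest and mouse 5L the shallowest. The values are normalized reads, which are gene counts divided by a size factor for each library. A single read was worth 0.118 to 0.602 normalized reads in the anti-CD40 libraries and 0.217 to 2.44 in the isotype libraries, so the low isotype values rested on few reads. A gene was tested when the mean of either group exceeded 10, and it was called past the threshold when the group means differed 1.5-fold or more and the unadjusted limma p did not exceed 0.05. Of 12969 genes tested, 166 were past the threshold upward with anti-CD40 (1.28%) and 31 downward (0.239%). The downward count is unsteady, at 123 without mouse 5L, 63 after quantile normalization and 59 with DESeq2. In 141 genes (1.09%) all 4 anti-CD40 libraries lay above all 4 isotype libraries. The endothelial identity of the cells was checked on Pecam1, which lay between 7671 and 12526 normalized reads in all 8 libraries, and on Cdh5, which lay between 9535 and 14039. RNA of other cells was abundant as well. The 6 fibroblast markers summed to 120637 to 249098 after anti-CD40 and 88497 to 216733 after isotype, above the 14 endothelial markers in every library (58409 to 84074 and 51662 to 71036). The 5 mural markers summed to 13623 to 22178 and 9912 to 32731, and the 7 melanoma markers reached 93734 in mouse 5L against 35745 to 60850 in the other 7 libraries.

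Of the 10 members, 8 passed the limit on low values and H2-DMb2 and H2-Oa did not. Ciita passed it only through its anti-CD40 mean, and the other 7 had both means above the limit. All 8 tested members were past the threshold upward, beside 1.28% of all genes tested, and in 6 of them the groups did not overlap, beside 1.09% of all genes tested. Because the list was chosen by this comparison, these counts restate the choice. The differences ranged from 0.97 for Ctss to 3.86 for Cd74 on the log2(value + 1) scale, with a median of 2.18, beside a median of 0.0046 over all genes tested. Fewer cells of a type and less RNA per cell cannot be told apart in sorted bulk samples such as these.

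**Figure D1:**
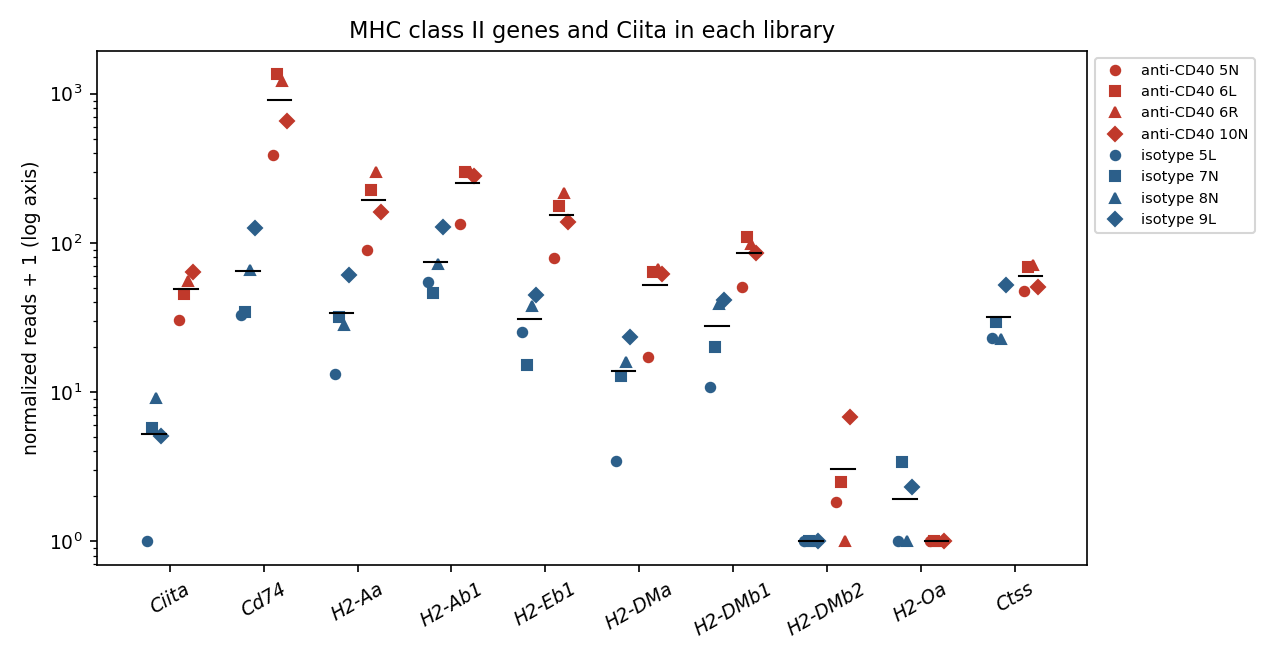
Normalized reads plus 1 (log axis) of the 10 members in each of the 8 libraries, with the mean of each group as a line. The red anti-CD40 libraries sit above the blue isotype libraries without overlap in Ciita, Cd74, H2-Aa, H2-Ab1, H2-Eb1 and H2-DMb1, they overlap in H2-DMa and Ctss, and H2-DMb2 and H2-Oa lie near 0.

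Ciita, the coactivator on which class II transcription depends, was nearly absent from the isotype libraries. It stood at 29.4 in mouse 5N, 44.1 in 6L, 54.8 in 6R and 62.7 in 10N after anti-CD40, and at 0 in 5L, 4.76 in 7N, 8.17 in 8N and 4.12 in 9L after isotype. The lowest anti-CD40 library was 3.61-fold above the highest isotype library. The means were 47.8 ± 14.4 and 4.26 ± 3.35 (SD, n = 4 each), a ratio of 11.2 and a log2 fold change of 3.54 (SE 0.64). The isotype values came from 27 reads in all, 19 of them in mouse 9L, against 566 reads in the anti-CD40 libraries. The 0 in mouse 5L allows up to 7.33 normalized reads at its depth, with 3 reads as the limit, a range that holds the values of mice 7N and 9L. The ratio was 8.41 without mouse 5L and 16.1 without mouse 8N, and the log2 fold change went from 2.01 with a pseudocount of 10 to 4.51 with a pseudocount of 0.1. Ciita lies at chr16:10480059-10528418 on the plus strand of GRCm38 (GENCODE M21), and its exons overlap those of Dexi on the opposite strand, which the unstranded library kit cannot separate. Dexi itself was at 44.4 to 69.0 in the anti-CD40 and 44.0 to 54.7 in the isotype libraries.

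Cd74, the invariant chain that guards the groove of new class II molecules, was the most abundant member after anti-CD40. Its values were 385 in mouse 5N, 1353 in 6L, 1223 in 6R and 652 in 10N, against 31.8 in 5L, 33.3 in 7N, 65.3 in 8N and 124 in 9L. Both groups were internally uneven, with a 3.51-fold range within anti-CD40 and a 3.91-fold range within isotype, yet the lowest anti-CD40 library stood 3.10-fold above the highest isotype library. The means of 903 ± 460 and 63.6 ± 43.2 (SD, n = 4 each) gave a ratio of 14.2 and a log2 fold change of 3.86 (SE 0.48). This was the largest among the 8 members tested, but Ciita stood above Cd74 with a pseudocount of 0.1 (4.51 against 3.89) and without mouse 7N (3.70 against 3.63). The ratio moved from 11.8 without mouse 6L to 20.8 without mouse 9L. Reads were plentiful on the anti-CD40 side (1122 to 3586 per library) and scarce in 3 isotype libraries, with 13 in 5L, 14 in 7N and 48 in 8N against 573 in 9L.

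The classical chains were all higher after anti-CD40, and none was absent from the isotype libraries. H2-Aa, the alpha chain of the I-A molecule, was at 89.2, 224, 299 and 160 in mice 5N, 6L, 6R and 10N and at 12.2, 30.9, 27.2 and 60.2 in mice 5L, 7N, 8N and 9L. Its means of 193 ± 89.5 and 32.7 ± 20.1 (SD, n = 4 each) differed by a ratio of 5.91 and a log2 fold change of 2.60 (SE 0.47), and the ratio lay between 4.83 and 8.23 when 1 library was left out. H2-Ab1, the beta chain that pairs with H2-Aa, was at 133, 296, 298 and 279 against 53.8, 45.2, 70.8 and 127 in the same order. Here 3 anti-CD40 libraries stood close together, and the groups were separated only narrowly, with mouse 5N 1.05-fold above mouse 9L. The H2-Ab1 means of 252 ± 79.3 and 74.1 ± 36.6 gave a ratio of 3.40 and a log2 fold change of 1.79 (SE 0.35).

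H2-Eb1, the beta chain of the I-E molecule whose alpha partner is missing in this strain, was also transcribed. It stood at 78.1, 176, 216 and 138 in mice 5N, 6L, 6R and 10N and at 24.4, 14.3, 36.8 and 43.8 in mice 5L, 7N, 8N and 9L, with a 1.78-fold gap between the groups. The means were 152 ± 58.7 and 29.8 ± 13.1 (SD, n = 4 each), the ratio was 5.09 and the log2 fold change 2.33 (SE 0.39). No read was assigned to the pseudogene H2-Ea-ps in any of the 8 libraries. H2-Aa lies at chr17:34282744-34287823 on the minus strand, H2-Ab1 at chr17:34257689-34269419 and H2-Eb1 at chr17:34305867-34316674 on the plus strand (GRCm38). The sum of the 3 chains was 301, 696, 813 and 577 in the anti-CD40 mice in the order above and 90.4, 90.4, 135 and 231 in the isotype mice.

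The H2-DM heterodimer, which exchanges the invariant chain remnant for peptide, is made of H2-DMa and a beta chain from H2-DMb1 or H2-DMb2. H2-DMa was at 16.1, 62.6, 66.2 and 61.0 after anti-CD40 and at 2.44, 11.9, 15.0 and 22.3 after isotype, so 3 anti-CD40 libraries lay together and mouse 5N fell below mouse 9L. Its means of 51.5 ± 23.7 and 12.9 ± 8.23 (SD, n = 4 each) gave a ratio of 3.99 and a log2 fold change of 2.02 (SE 0.63), the largest error relative to its size after that of Ctss. H2-DMb1 was at 49.7, 108, 96.9 and 84.8 against 9.78, 19.0, 38.1 and 40.7, with mouse 5N 1.22-fold above mouse 9L. Its means were 84.9 ± 25.3 and 26.9 ± 15.0 (SD, n = 4 each), with a ratio of 3.15 and a log2 fold change of 1.76 (SE 0.44).

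The paralogue H2-DMb2 and the H2-DO alpha chain H2-Oa were at the edge of detection. H2-DMb2 had 7, 4, 0 and 10 reads in mice 5N, 6L, 6R and 10N and no read in the 4 isotype libraries. H2-DMb2 lies at chr17:34143307-34151555 and H2-DMb1 next to it at chr17:34153072-34160230, both on the plus strand. Of the 50-base windows in the transcripts of H2-DMb1, 22.7% also occur in H2-DMb2, so the split of reads between the pair is uncertain. H2-Oa, by contrast, had no read in any anti-CD40 library and 7 reads in the isotype libraries, 1 in mouse 7N and 6 in mouse 9L, and its exons overlap those of BC051537 on the opposite strand. Of the class II genes that were not members, H2-Ob, the beta chain of H2-DO, had 39 reads after anti-CD40 and 7 after isotype, and H2-Eb2 had 2 and 0.

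Ctss, the protease that makes the last cuts in the invariant chain in antigen-presenting cells, differed least among the 8 members tested. It was at 46.6, 68.3, 70.4 and 49.9 in mice 5N, 6L, 6R and 10N and at 22.0, 28.5, 21.8 and 51.6 in mice 5L, 7N, 8N and 9L. Mouse 9L lay above 2 of the 4 anti-CD40 libraries, so the groups overlapped. The means of 58.8 ± 12.3 and 31.0 ± 14.1 (SD, n = 4 each) gave a ratio of 1.90 and a log2 fold change of 0.97 (SE 0.32), and the ratio was 2.44 without mouse 9L. Ctss lies apart from the other members, at chr3:95526786-95556403 on the plus strand. Its RefSeq promoter held GAAANNGAA, the core of an interferon-stimulated response element searched on both strands, as did 8.56% of all promoters, and neither the X-Y pattern nor the Y core. That element was not found in the other 6 members with a promoter at hand, and TTCNNNGAA, the core of a gamma-activated site searched in the same way, was found in H2-DMb2 alone among the 7, and in 8.30% of all promoters.

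**Figure D2:**
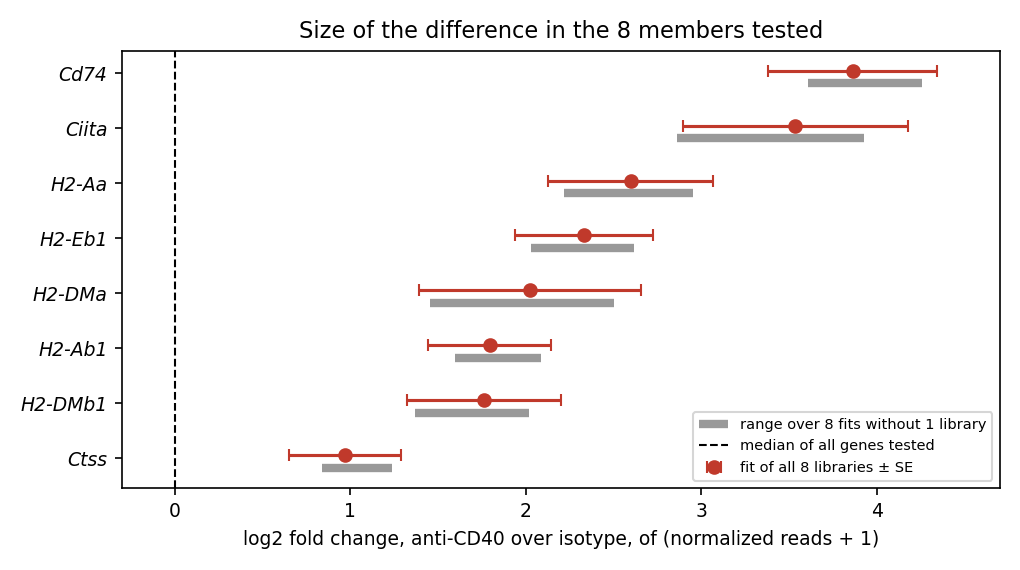
Log2 fold change of anti-CD40 over isotype (normalized reads plus 1) of the 8 members tested, with the standard error, above a grey bar for the range over the 8 fits that each leave out 1 library. The values run from 0.97 for Ctss to 3.86 for Cd74, and every grey bar lies to the right of the dashed median of all genes tested.

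All 8 tested members were past the threshold in each of the 8 fits that left out 1 library. Because the list was chosen by this comparison, the calls in these refits largely restate the choice. Within a group the members mostly shared their lowest or highest library. Mouse 5N was the lowest anti-CD40 library for all 8, and mouse 9L the highest isotype library for 7, with Ciita, highest in mouse 8N, as the exception. The highest value overall was in mouse 6R for 5 members, in 6L for 2 and in 10N for 1. The place of mouse 5N was not particular to the members. It was also the lowest anti-CD40 library for Irf1, Irf8, Socs1, Psmb8, Psmb9, Tap1 and Tap2, which are described further on. Mouse 5N was also the deepest library and 9L the second deepest. Without the deepest and the shallowest library, 5N and 5L, the 8 members were again past the threshold, with a median log2 fold change of 2.25.

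Levels were compared between genes after division by the exon length. On the scale of normalized reads per kilobase, Cd74 was at 638 ± 325 (SD, n = 4) after anti-CD40, followed by H2-Ab1 at 208 ± 65.4, H2-Aa at 171 ± 79.4, H2-Eb1 at 84.6 ± 32.7, H2-DMb1 at 60.5 ± 18.1, Ctss at 43.3 ± 9.02, H2-DMa at 19.3 ± 8.87 and Ciita at 5.78 ± 1.74. In the isotype libraries H2-Ab1 came first at 61.1 ± 30.2, ahead of Cd74 at 44.9 ± 30.5, H2-Aa at 28.9 ± 17.8, Ctss at 22.8 ± 10.4, H2-DMb1 at 19.2 ± 10.7, H2-Eb1 at 16.6 ± 7.28 and H2-DMa at 4.84 ± 3.09. Ciita was at 0.516 ± 0.406. After anti-CD40 the neighbours H2-Ab1 and H2-Aa, H2-Eb1 and H2-DMb1, and H2-DMb1 and Ctss differed by less than the larger of their SDs. In the isotype libraries each pair of neighbours from H2-Ab1 down to H2-Eb1 did so, and the group means do not resolve their order.

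The proportions of the members within a library were compared because such ratios do not depend on the scaling of the library. Cd74 per H2-Ab1, both per kilobase, was 2.47, 3.91, 3.51 and 2.00 in mice 5N, 6L, 6R and 10N and 0.506, 0.631, 0.790 and 0.840 in mice 5L, 7N, 8N and 9L. Every anti-CD40 library thus held more Cd74 than H2-Ab1 per length, and every isotype library held less. Cd74 per H2-Aa was also apart, at 3.69 ± 0.758 against 1.62 ± 0.539 (SD, n = 4 each), as was Cd74 per Ctss at 14.0 ± 4.87 against 1.92 ± 0.815. Ciita per H2-Ab1 lay between 0.0219 and 0.0330 after anti-CD40 and between 0 and 0.0169 after isotype. H2-Aa per H2-Ab1 (0.806 ± 0.197 against 0.476 ± 0.205), H2-Eb1 per H2-Ab1 (0.404 ± 0.0639 against 0.276 ± 0.0639) and H2-DMb1 per H2-Ab1 (0.295 ± 0.0283 against 0.316 ± 0.131) overlapped between the groups. For H2-Aa the overlap came from mouse 7N alone, at 0.735 from 13 reads of H2-Aa and 19 of H2-Ab1. For H2-Eb1 it came from mouse 8N alone, at 0.350. No test was made of these ratios, because they come from the values that chose the members.

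**Figure D3:**
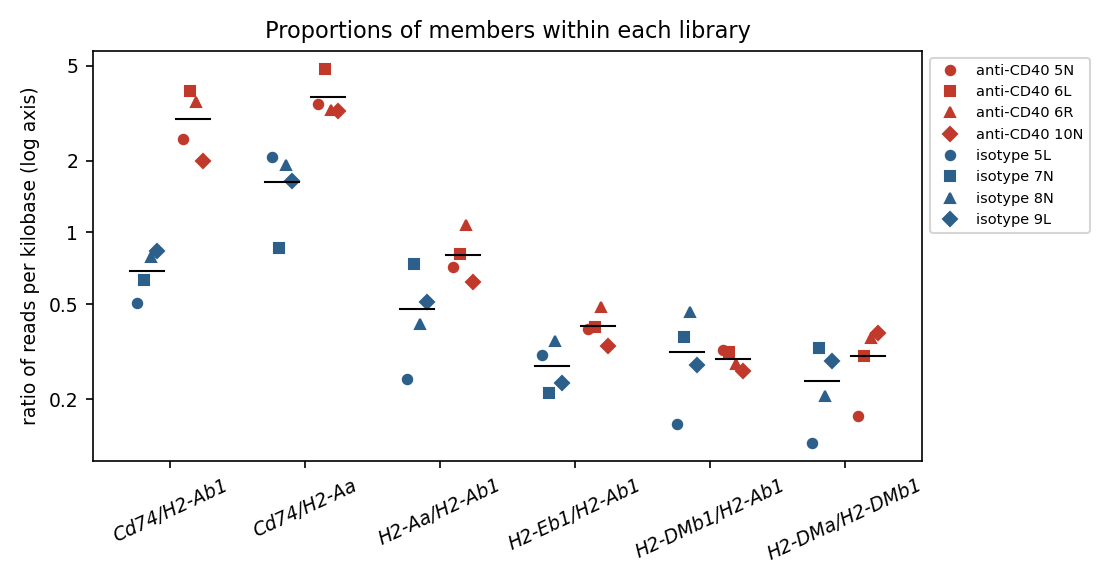
Ratios of reads per kilobase (log axis) between pairs of members within each of the 8 libraries, with group means as lines. Cd74 per H2-Ab1 and Cd74 per H2-Aa separate the anti-CD40 libraries in red from the isotype libraries in blue, and the ratios among H2-Aa, H2-Eb1, H2-DMb1, H2-DMa and H2-Ab1 overlap.

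Class II genes are strongly expressed by leukocytes, so leukocyte markers were read in the same libraries. Of 12 pan-leukocyte markers 7 were tested and none of these was past the threshold. Their ratios were 1.70 (Tyrobp), 1.30 (Cd53), 1.07 (Lcp1), 1.05 (Coro1a), 0.965 (Laptm5), 0.954 (Itgb2) and 0.753 (Fcer1g). Without mouse 9L that of Tyrobp was 2.88, that of Cd53 1.55 and that of Coro1a 1.43. Tyrobp, with an isotype mean of 9.26, reached the limit for testing only through its anti-CD40 mean. None of the 12 was at 0 in every library, and their sum lay between 1520 and 1695 after anti-CD40 and between 1229 and 1762 after isotype. Most of that sum was Lcp1, and the other 11 markers summed to 148, 270, 307 and 237 in mice 5N, 6L, 6R and 10N and to 147, 250, 139 and 349 in mice 5L, 7N, 8N and 9L. Mouse 5N, lowest among the anti-CD40 libraries for the class II genes, was also lowest there for these markers, and mouse 9L was highest among the isotype libraries for both. Mouse 9L had the highest marker sum of all 8 libraries and a sum of the 3 chains of 231, below the 301 of mouse 5N. The part of leukocyte RNA in either order was not tested. Ptprc, the CD45 gene on which leukocytes were gated out, was at 5.77, 1.51, 21.1 and 11.6 after anti-CD40 and at 0, 2.38, 2.72 and 4.98 after isotype, with 108 and 26 reads in all. It was too low to be tested, with a ratio of means of 3.96 and overlapping groups, and the ratio was 2.50 without mouse 6R and 5.87 without mouse 9L. It reached the limit for testing only when mouse 5N or 6L was left out, through the anti-CD40 mean alone, so no call is read from those fits. The other 4 markers too low to be tested had ratios of 2.71 (Cd48), 1.93 (Rac2), 1.83 (Spi1) and 1.11 (Cd52), and without mouse 9L that of Cd48 was 5.27, that of Rac2 2.88 and that of Spi1 2.75.

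Markers of particular antigen-presenting cells and other cell types were read as well. The 8 B cell markers summed to 1.65 to 9.63 after anti-CD40 and 0 to 9.32 after isotype, with Pax5 and Fcmr at 0 throughout. The 9 dendritic cell markers summed to 276 to 406 and 215 to 350, nearly all from Zbtb46 and Clec9a, and the other 7 summed to 6.71 to 15.6 and 4.89 to 16.7, with Cd209a and Siglech at 0. The 11 macrophage and monocyte markers summed to 330 to 557 and 211 to 500. Among these Mrc1, a mannose receptor of macrophages that some endothelial cells also express, was past the threshold with a ratio of 1.74, which was lost at 1.54 without mouse 8N. The macrophage and monocyte list as a whole was 1.32-fold higher on average with anti-CD40, and the median log2 fold change of its 10 tested genes was 0.55. Of these, Itgam and Fcgr1 reached the limit for testing only through their anti-CD40 means, with isotype means of 8.23 and 8.22. The median has to be read with that. Itgam (ratio 2.03), Lyz2 (1.54), C1qa (1.48), C1qb (1.37) and Fcgr1 (1.34) were higher on average without passing. When 1 library was left out, Lyz2 passed in 3 of the 8 fits, Itgam in 2 and C1qb in 1. Ccr2, too low to be tested, was also higher on average (1.73, but 1.29 without mouse 5L and 3.66 without mouse 9L). Cd68 (0.978), Adgre1 (0.934), Csf1r (0.925) and C1qc (0.907) were slightly lower, and of the 10 tested only Mrc1 did not overlap between the groups. The 8 T and NK cell markers in the table summed to 2.32 to 10.8 and 0 to 4.76, with Cd3d at 0. The ratio of the mean sums was 3.06, and all 8 were too low to be tested. In libraries of unlike depth, Prf1 had 42 reads after anti-CD40 and 0 after isotype, Cd8a 14 and 0, and Cd3e 8 and 0. Cd8b1 had 2 and 0, Ncr1 2 and 0, Klrb1c 39 and 13, and Cd3g 0 and 1. The 7 lymphatic endothelial markers summed to 3456 to 6338 after anti-CD40 and 2207 to 4521 after isotype, and none of the 7 was past the threshold. All 7 were nonetheless higher on average with anti-CD40, with a median log2 fold change of 0.86 and ratios of 1.81 for Lyve1, 1.81 for Reln, 1.73 for Mmrn1, 1.72 for Ccl21a, 1.35 for Prox1, 1.14 for Flt4 and 1.03 for Pdpn, and all 7 overlapped between the groups. When 1 library was left out, Lyve1, Ccl21a, Reln and Mmrn1 each passed in 1 of the 8 fits. Their ratios lay between 1.22 and 1.30 without mouse 6L and between 2.36 and 2.53 without mouse 8N. The part of leukocyte or lymphatic endothelial RNA in the class II values was not tested.

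**Figure D4:**
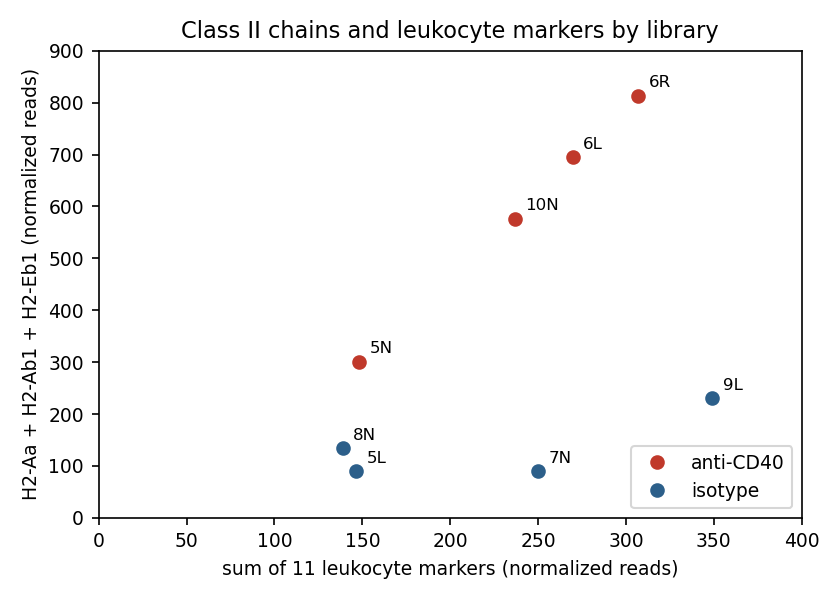
Sum of H2-Aa, H2-Ab1 and H2-Eb1 against the sum of 11 leukocyte markers (Lcp1 left out), both in normalized reads, with 1 point per library. The 4 anti-CD40 libraries (301 to 813 on the vertical axis) lie above the 4 isotype libraries (90.4 to 231), and the marker sums of the groups overlap. The part of leukocyte RNA in the chains was not tested.

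The genes around the signal from interferon gamma to Ciita, inhibitors such as Socs1 included, were taken as a list of 12, all of which were tested. Of these, 3 rose with anti-CD40 and none fell, beside 1.28% and 0.239% of all genes tested, and the median log2 fold change of the list was 0.14. One of the 3, Socs1, reached the limit for testing only through its anti-CD40 mean. Irf1, an interferon-inducible factor that acts on the Ciita promoter, rose 1.99-fold, from 305 to 709 in the isotype libraries to 784 to 1330 in the anti-CD40 libraries (log2 fold change 1.03, SE 0.25, limma p = 0.0019, Benjamini-Hochberg adjusted p = 0.46, exact permutation p = 0.029, the smallest that 4 against 4 libraries allow) and did not overlap between the groups. Irf8, an interferon-inducible factor best known from myeloid cells, rose 1.70-fold (0.76, SE 0.20, limma p = 0.003, adjusted p = 0.60, exact permutation p = 0.029), also without overlap.

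Socs1, the feedback inhibitor of JAK signaling, was at 10.5, 19.2, 19.9 and 45.3 after anti-CD40 and at 2.44, 4.76, 13.6 and 12.6 after isotype. Its isotype mean of 8.35 lay under the limit of 10, so it was tested only because its anti-CD40 mean of 23.7 was high, and its call has to be read with that. It passed the threshold with a ratio of 2.84 (log2 fold change 1.46, SE 0.59, limma p = 0.032, adjusted p = 1.00, exact permutation p = 0.086) but overlapped between the groups, and it did not pass without mouse 6L, 6R, 10N, 5L or 7N (log2 fold change 1.06 to 1.49 in those fits). The receptor chains and kinases did not pass, and Jak1, the most abundant gene of the list, had a ratio of 1.01 (3252 ± 377 against 3213 ± 615, SD, n = 4 each). Socs1 is also a neighbour of Ciita in the genome, and of the 5 neighbours Socs1, Clec16a, Dexi, Nubp1 and Tvp23a it alone was past the threshold. Clec16a, the most abundant of them, stood at 220 ± 17.4 and 227 ± 35.9 (SD, n = 4 each).

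The proteins that hold CIITA at the X and Y boxes, and cofactors such as Crebbp, Ep300, Kat2b, Carm1 and Smarca4, were covered by a list of 12 genes. All 12 were tested, and none was past the threshold in either direction or had an unadjusted p under 0.05 by limma, edgeR or DESeq2. Rfx5, the DNA-binding subunit of the RFX complex, was at 140 to 178 after anti-CD40 and 127 to 214 after isotype (ratio 0.933, exact permutation p = 0.63). Rfxap, the subunit that links to it, had a ratio of 1.18 (exact permutation p = 0.43) and Rfxank, the ankyrin subunit, 1.06 (p = 0.63). The most abundant gene of the list, the chromatin remodeller Smarca4, was at 1601 ± 149 and 1601 ± 328 (SD, n = 4 each).

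Endosomal processing was covered by 11 genes, of which 10 were tested and none passed or had an unadjusted p under 0.05 by any of the 3 tools. Ifi30, the thiol reductase of antigen-processing compartments, was lower after anti-CD40, at 162 to 226 against 201 to 330, with a ratio of 0.75 that missed the threshold (log2 fold change -0.39, SE 0.19, limma p = 0.065, adjusted p = 1.00, exact permutation p = 0.11). Ctsl, the cathepsin that cuts the invariant chain in thymic epithelium, had a ratio of 0.924 (exact permutation p = 0.71) and the asparaginyl endopeptidase Lgmn 0.967 (p = 0.77). Ctsb was the most abundant gene of the list, at 6740 ± 328 and 6695 ± 1044 (SD, n = 4 each). Of 9 genes for turnover and partners of Cd74 in the table, 7 were tested and none passed, among them Cd44, the signaling partner of surface CD74, at 2983 ± 228 and 3160 ± 585.

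Co-stimulation, the other signal a T cell needs, was followed through 7 genes, of which 4 were tested and none rose. Cd80, 1 of these 4, was past the threshold downward, beside 0.239% of all genes tested, at 29.0, 9.81, 12.0 and 12.2 in mice 5N, 6L, 6R and 10N against 26.9, 19.0, 28.6 and 44.2 in mice 5L, 7N, 8N and 9L (ratio 0.531, log2 fold change -0.94, SE 0.41, limma p = 0.043, adjusted p = 1.00, exact permutation p = 0.11), but not by edgeR or DESeq2. Its groups overlapped, and it passed without mouse 5N or 7N but not without any other library (log2 fold change -0.96 to -0.73). Cd40, the receptor that the antibody binds, was at 47.5 to 68.6 after anti-CD40 and 19.0 to 70.4 after isotype (ratio 1.18, exact permutation p = 0.46). Cd86 did not reach the limit for testing. Lag3, a T cell receptor for class II, was at 16.9 ± 10.2 and 19.5 ± 12.7 (SD, n = 4 each), and Cd4 was too low to be tested.

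**Figure D5:**
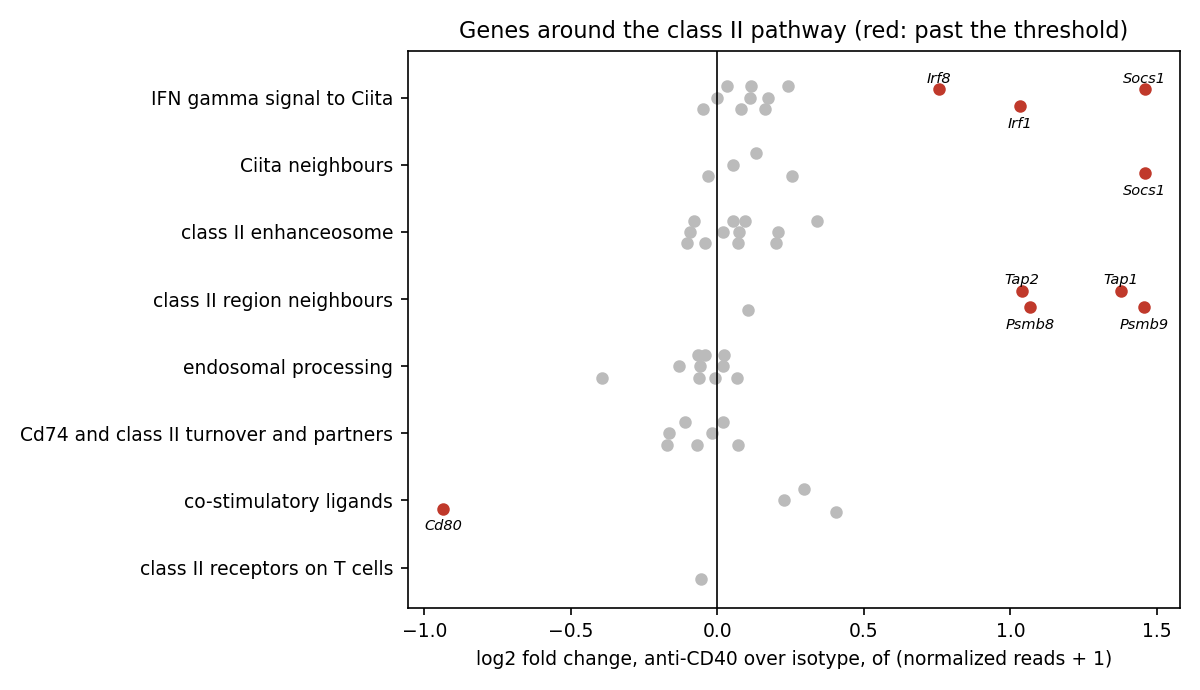
Log2 fold change of anti-CD40 over isotype (normalized reads plus 1) of the tested genes in 8 lists around the class II pathway, with genes past the threshold in red and named. Those above 0 are Irf1, Irf8 and the inhibitor Socs1 in the interferon gamma list and Psmb8, Psmb9, Tap1 and Tap2 inside the class II region. Cd80 is the one below 0.

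A stretch of chromosome 17 from 34092340 to 34316674 holds 7 of the members and 6 other genes of the table, of which 5 were tested. The class I peptide transporter and immunoproteasome genes within it rose, 4 of the 5 tested, beside 1.28% of all genes tested. Psmb9, an immunoproteasome subunit, was at 197, 356, 383 and 323 in mice 5N, 6L, 6R and 10N and at 63.5, 90.4, 186 and 140 in mice 5L, 7N, 8N and 9L (ratio 2.62, log2 fold change 1.46, SE 0.33, limma p = 0.001, adjusted p = 0.36, exact permutation p = 0.029). Tap1, a subunit of the peptide transporter, rose 2.53-fold (1.38, SE 0.34, limma p = 0.0018, adjusted p = 0.46, exact permutation p = 0.057), Tap2 2.05-fold (1.04, SE 0.33, limma p = 0.009, adjusted p = 1.00, exact p = 0.086) and Psmb8 1.96-fold (1.07, SE 0.30, limma p = 0.0047, adjusted p = 0.77, exact p = 0.029). Each of the 4 passed in all 8 fits without 1 library, and Psmb8 and Psmb9 did not overlap between the groups, beside 1.09% of all genes tested, whereas Tap1 and Tap2 did. Brd2, a bromodomain gene that lies between H2-Oa and H2-DMb2, was at 1913 to 2007 and 1603 to 2050 (ratio 1.07, exact permutation p = 0.26). Over all lists 55 genes were tested, of which 7 rose and 1 fell, beside 1.28% and 0.239% of all genes tested. By limma 8 of them had an unadjusted p under 0.05 and none an adjusted p under 0.05. By edgeR on recovered reads these counts were 7 and 0, and by DESeq2 7 and 3, the 3 being Irf1, Psmb9 and Tap1.

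The genes whose pattern over the 8 libraries was most like that of the members were found by the root mean square difference of log2(value + 1) after centring each gene. This measure is a description, since the groups set much of each pattern. For Cd74 the nearest were Ccl5 (difference 0.43), Phf11b (0.68), Ido1 (0.71), Gbp10 (0.76) and Apol7c (0.91). Ccl5, a chemokine, was at 30.1 ± 18.2 after anti-CD40 and 1.78 ± 2.10 after isotype (SD, n = 4 each), and Ido1, a tryptophan-degrading enzyme, at 16.9 ± 5.40 and 1.60 ± 1.89. For Ciita the nearest were Serpina3f (0.44), Gbp5 (0.50), Gm4841 (0.61), Cxcl9 (0.64) and Gbp6 (0.68). Cxcl9, another chemokine, was at 3277 ± 1377 and 800 ± 556. Members were left out of this search. The member nearest to Cd74 and to Ciita was H2-Aa, at 0.74 and 0.84. It was further away than each gene given for Ciita, and further than Ccl5, Phf11b and Ido1 for Cd74. For the mean of H2-Aa, H2-Ab1 and H2-Eb1 they were H2-Q5 (0.41), Cd274 (0.43), H2-Q7 (0.45), Igtp (0.45) and Phf11b (0.47). Cd274, which encodes the inhibitory ligand PD-L1, stood at 293 ± 66.0 and 85.4 ± 45.0, and H2-Q7, a nonclassical class I gene, at 737 ± 323 and 203 ± 103.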

How the data were processed

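Tumor endothelial cells (about 100000 per tumor) were sorted and 10 ng of RNA entered an unstranded TruSeq RNA v2 kit, per the labels. By the submitters' processing notes and the study's methods, the authors used CASAVA 1.8, TopHat2 with Bowtie2 2.2.1 on mm10, Partek 6.6 and DESeq2 normalization. The deposited values are a signal, gene counts divided by a size factor per library, on a linear scale. Whole reads were recovered for 99.9% of values (within 0.1 read of a whole number). The methods name a correction for the day of harvest. No day per library was at hand, no day term was fitted, and whether harvest day differed between the groups was not tested.

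Here log2(value + 1) was fitted with limma 3.58.1 (trended empirical Bayes, R 4.3.3) on all 8 libraries, with Benjamini-Hochberg adjustment over 12969 genes, those where either group mean exceeded 10. The authors' criteria, a ratio of 1.5 and an unadjusted p of 0.05, set the threshold. The pipeline was tested on simulated data. The count test in edgeR 4.0.16 on recovered reads called 150 genes higher and 47 lower, and DESeq2 1.42.0 called 161 and 59. After adjustment limma called 2 genes higher and 0 lower, against 3 and 0 by edgeR and 63 and 1 by DESeq2. Alternatives were other pseudocounts, filters, scalings, moderation and leaving out each library. Exact permutation tests were two-sided over 70 splits.

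The members, the lists and the rule for named genes (all members, 10 set pathway genes, list genes past the threshold, the most abundant gene of each list and the 5 nearest genes to Cd74, Ciita and the chains) were chosen with earlier results of these data known. One gene was taken out of the lists and of every count over them and is not reported here. Labels gave each library its own mouse name and no replicate number. Promoters were read from RefSeq and positions from GENCODE M21. Counting limits and floors cover counting error only.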

Additional observations from a re-analysis of the deposited data

Results flagged for a closer look

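Each group of 4 libraries was examined for a single library far from the others in 48 named genes. Of 93 groups whose values varied, 8 held such a library. The rule marks about 1 group in 20 by chance only for independent, normally distributed values. These were linear values of genes partly chosen for like patterns, so no excess over chance is read from the count. In the anti-CD40 group, H2-Ab1 was at 133 in mouse 5N against 279 to 298 in the other 3 libraries, a gap that took 0.881 of the range of the group, more than Dixon's 95% critical value for 4 libraries. In the same library H2-DMa was at 16.1 against 61.0 to 66.2 (0.896 of the range) and Cd80 at 29.0 (0.875), the highest of its group. Mouse 5N was the deepest library and had the lowest sum of the 11 leukocyte markers in its group, at 148, and the part of either in these values was not tested. Mouse 6L was highest in the anti-CD40 group for Lag3, at 32.1 (0.831), and for H2-Eb2, at 0.754. It was the one library of its group with any read of H2-Eb2, so the rule marks it whatever the value. In the isotype group mouse 8N was highest for Gbp10, at 29.9 (0.975), and for Apol7c, at 4.08 (0.841), and mouse 5L, the shallowest library, was lowest for Ctsb, at 5142 (0.859).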

How the results depend on the processing

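The 8 tested members stayed past the threshold under each alternative that tested them, and with a limit of 50 on the mean, which left out Ciita, 7 of 7 did. The list was chosen by this comparison, so these counts largely restate the choice and are not separate support. Of 151 alternative log2 fold changes of members, 150 moved by less than the spread between replicates, the exception being Ciita at 2.01 with a pseudocount of 10. The median of the members lay between 1.95 and 2.56 when 1 library was left out. Over all genes, 331 were higher and 93 lower without a filter on low values. The count of lower genes was 13 with a mean above 50, 63 after quantile normalization, 47 with edgeR, 59 with DESeq2, 57 without the trend and 133 without the deepest and the shallowest library, an alternative added after seeing the data. Leaving out 1 library gave 27 to 123 lower genes, with 123 without mouse 5L and 52 without mouse 9L, and 124 to 234 higher genes. The cause was not tested, apart from the change in the genes or libraries used.

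Genes near 0 changed sign. Smarca4 was at -0.0099 with edgeR and -0.0093 with DESeq2. Without the deepest and the shallowest library Cd44 was at 0.015, Clec16a at 0.0028, Ctsb at -0.10 and Jak1 at -0.17. When 1 library was left out the log2 fold change ranged from -0.17 to 0.036 for Cd44, from -0.13 to 0.046 for Clec16a, from -0.099 to 0.074 for Ctsb, from -0.26 to 0.11 for Ctsl, from -0.11 to 0.13 for Jak1, from -0.56 to 0.29 for Lag3, from -0.14 to 0.019 for Lgmn, from -0.22 to 0.033 for Rfx5, from -0.036 to 0.19 for Rfxank and from -0.11 to 0.13 for Smarca4. No paired analysis was possible because the labels give mouse names and no replicate numbers, and the groups share just 1 number in those names (mice 5N and 5L), which does not pair them. Few reads in the isotype libraries 5L, 7N and 8N limit all members, Ciita with 0, 2 and 6 reads there and H2-DMa with 1, 5 and 11.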
